A study of Caenorhabditis elegans with 2 samples.

Results

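Nuclear genes for the respiratory chain and for the mitochondrial ribosome were examined for binding of the zinc finger protein ZTF-28 in the nematode Caenorhabditis elegans. Members were the nuclear protein-coding genes whose symbols begin with nuo-, nduf-, cox-, cyc-, ucr-, sdha-, sdhb-, sdhd-, atp-, mrpl- or mrps-. There were 114 members among 19973 nuclear protein-coding genes. Of these, 44 belonged to the respiratory chain, counted here with cytochrome c, the assembly factors of complex IV and the ATP synthase, and 70 encoded proteins of the mitochondrial ribosome. The assay was ChIP-seq, chromatin immunoprecipitation with sequencing, in which DNA bound by a protein is pulled down with an antibody and sequenced. The 2 libraries are biological replicates of a single condition, and the comparisons made here are between groups of genes. All worms were of strain RW12281, with a TY1, EGFP and 3xFLAG tag inserted by CRISPR into the ztf-28 gene on chromosome V. They had been synchronised by bleaching and starvation as L1 larvae and were taken as young adults of 63 hours. Chromatin of whole animals was sheared by sonication and precipitated with an antibody to GFP. No untagged or input library was analysed here. In whole worms, binding in few cells and weak binding in many cells cannot be told apart.

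The respiratory chain passes electrons from nutrients to oxygen through membrane complexes and pumps protons as it does so, and the ATP synthase, complex V, uses the returning protons to make ATP. Most subunits are encoded in the nucleus, but a few core subunits are encoded by mitochondrial DNA and are made by the mitochondrial ribosome, whose own proteins are all products of nuclear genes. The chain thus depends on both sets of genes, and in worms the respiratory chain is also known for its effects on development rate and lifespan. Many worm genes lie close behind another gene on the same strand and may be transcribed together with it in an operon, and many annotated starts are trans-splice sites that lie downstream of the true start of transcription.

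Reproducible binding was found at respiratory chain genes and at no gene of the mitochondrial ribosome. A gene was counted as bound when the summit of a peak lay between 500 bp upstream and 200 bp downstream of 1 of its annotated transcript starts. Reproducible peaks were the 1086 peaks of the authors' conservative list, which passed a threshold on the irreproducible discovery rate (IDR). The IDR is low where a peak ranks high in both replicates. By this rule 7 of 44 respiratory chain genes were bound (15.9%, 95% Wilson interval 7.93 to 29.4), against 0 of 70 mitochondrial ribosome genes, where a count of 0 was taken to allow 3 counts, a share of up to 4.29% (the Wilson upper bound is 5.2%). Over all nuclear protein-coding genes, 598 of 19973 were bound (2.99%). That share lies within what the 0 of 70 allows, so the count does not set mitochondrial ribosome genes apart from protein-coding genes in general. The bound members were cox-5B, cox-6B and cox-5A of complex IV, atp-5 and atp-1 of the ATP synthase, cyc-1 of complex III and nduf-9 of complex I. In the authors' lists of a single library, 4 respiratory chain genes were bound in each replicate, with 1 mitochondrial ribosome gene in replicate 1 (1.17% of all genes) and 0 in replicate 2 (1.36% of all genes). In a window of 250 bp upstream and 100 bp downstream the counts were 4 and 0, against 1.84% of all genes. At a global IDR of 0.001 or less, 5 respiratory chain genes and 0 mitochondrial ribosome genes were bound, against 1.14% of all. Intervals cover the counting of genes only, and with 1 group of libraries no test between the gene sets was made.

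The DNA under the bound summits is shown for the bound members on chromosomes III and V, together with the window of mrpl-45, the mitochondrial ribosome gene with the highest pooled signal. Each line gives 201 bases of assembly ce11 centred on the summit and read 5′ to 3′ on the gene's strand, from chrV:11124061-11124261 (atp-5, minus strand), chrIII:12905090-12905290 (cox-5A, plus strand), chrIII:2785934-2786134 (cox-6B, plus strand), chrIII:3248692-3248892 (nduf-9, minus strand) and chrIII:1202130-1202330 (mrpl-45, minus strand). Capitals mark matches to the searched words TTTCAG and TGCGCA on either strand.
atp-5: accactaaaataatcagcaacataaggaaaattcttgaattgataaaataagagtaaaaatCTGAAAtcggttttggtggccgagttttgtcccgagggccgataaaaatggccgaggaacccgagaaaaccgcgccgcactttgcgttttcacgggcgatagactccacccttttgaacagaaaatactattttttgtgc
cox-5A: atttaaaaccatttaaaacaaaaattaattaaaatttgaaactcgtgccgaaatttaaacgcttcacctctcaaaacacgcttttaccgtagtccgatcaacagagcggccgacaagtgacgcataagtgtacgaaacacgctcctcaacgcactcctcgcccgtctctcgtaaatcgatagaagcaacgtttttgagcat
cox-6B: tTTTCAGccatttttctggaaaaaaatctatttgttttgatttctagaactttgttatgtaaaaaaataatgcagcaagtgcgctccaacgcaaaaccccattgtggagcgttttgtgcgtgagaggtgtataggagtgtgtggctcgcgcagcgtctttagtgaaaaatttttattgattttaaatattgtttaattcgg
nduf-9: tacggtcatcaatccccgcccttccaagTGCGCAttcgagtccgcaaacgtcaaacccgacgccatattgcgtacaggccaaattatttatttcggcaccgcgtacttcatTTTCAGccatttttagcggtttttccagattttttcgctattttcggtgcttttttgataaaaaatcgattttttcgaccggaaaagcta
mrpl-45: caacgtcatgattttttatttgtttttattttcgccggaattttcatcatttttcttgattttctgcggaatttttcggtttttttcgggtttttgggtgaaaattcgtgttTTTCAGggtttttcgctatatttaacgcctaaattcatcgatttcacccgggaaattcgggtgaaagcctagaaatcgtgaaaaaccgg
None of these 5 stretches contained an annotated start of the gene itself. The cox-5A stretch has no capitals, its TTTCAG match lying farther from the summit, and the nduf-9 stretch holds a match to each of the words.

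Complex IV, cytochrome c oxidase, is the complex that passes electrons to oxygen, and 3 of its 7 subunit genes among the members were bound. The strongest peak at any member belonged to cox-5B (WBGene00000371), a nuclear subunit of the oxidase, at chromosome I, 9788546 to 9788845. Its signal, the authors' own value per peak on an unstated scale, was 114.5 in replicate 1 and 117.7 in replicate 2, and 233.5 in the pooled libraries. The replicate values were almost equal, and the peak ranked 40 of 1086 in the conservative list by pooled signal. Its summit lay at -29 bp, negative values being upstream of the nearest annotated start, and it lay in the start window of no other annotated gene.

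The cox-6B gene (WBGene00022170), which encodes another nuclear subunit, had a peak at chromosome III, 2785884 to 2786183, with signals of 47.3 in replicate 1, 92.01 in replicate 2 and 133.7 in the pool. Replicate 2 was 1.95 times replicate 1, the widest gap between replicates among the bound members. The summit lay at -168 bp from 1 of the 2 annotated starts of cox-6B, inside the gene's span but in none of its exons, and at -86 bp from Y71H2AM.20. The cox-5A peak (WBGene00012553; chromosome III, 12905040 to 12905339) had signals of 63.45, 56.72 and 116.8 in replicate 1, replicate 2 and the pool. It lay outside annotated genes at -301 bp, and a second, lower peak at -83 bp with a pooled signal of 23.06 appeared in the authors' optimal list, which was called from the pooled libraries.

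Not every oxidase subunit gene carried a strong peak. Below the bound members stood cox-4, with a strongest ranked peak of 55.7, and cox-6C, with 55.16, while cox-7C had 29.87 and cox-6A had 21.68. Ranked peaks are all 103094 candidate peaks of the replicate comparison before the IDR threshold, so most of them are not reproducible. The 8 other cox genes, whose products assemble the oxidase or deliver heme and copper to it, had no reproducible peak, and their ranked signals ran from 19.49 at cox-18 to 50.96 at cox-10. The assembly gene cox-14 had no ranked peak in its window.

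The 5 ATP synthase genes with atp- symbols had the highest median signal of any complex, 65.09, and all 5 lay in the top 10% of protein-coding genes. Synthase genes with other symbols, given below, were not all as high. The peak of atp-5 (WBGene00007385), a subunit of the stalk of the enzyme, lay at chromosome V, 11124011 to 11124310, with signals of 59.67 in replicate 1, 87.88 in replicate 2 and 151.1 in the pool. Its summit was at -294 bp from atp-5 but at -25 bp from the divergent gene lmtr-3, a relative of a subunit of the complex that anchors TOR kinase at lysosomes. A second atp-5 peak at 187 bp, with a pooled signal of 86.47, was in the optimal list.

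The peak of atp-1 (WBGene00010419), the alpha subunit of the catalytic head, lay at chromosome I, 12652141 to 12652440. Its signals were 60.52 in replicate 1, 58.56 in replicate 2 and 118.5 in the pool. The summit was the only one downstream of the start among the bound members, at 14 bp in the 5′ UTR of atp-1, and it also lay in windows of mcrs-1 (-204 bp) and of the piRNA gene 21ur-12279 (-94 bp). The remaining atp- genes were close to one another, at 65.09 for atp-2, the beta subunit, 62.65 for atp-4 and 53.55 for atp-3. The first of these had signals of 26.97 in replicate 1 and 36.21 in replicate 2 and a global IDR of 0.0431, and atp-4 had one of 0.0396.

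The other bound members were in complexes I and III. Complex I, NADH dehydrogenase, had 12 members, not counting genes with other symbols such as gas-1, given below. Of these 1 was bound, nduf-9 (WBGene00021800), related to an accessory subunit. Its peak at chromosome III, 3248642 to 3248941, had signals of 38.56, 44.63 and 70.51 in replicate 1, replicate 2 and the pool, and ranked 1018 of 1086. This was the weakest bound member, with a global IDR of 0.00511, and its summit at -217 bp also lay within the window of the microRNA gene cel-mir-4936 at -359 bp. The next complex I gene, nuo-3, had 64.44 with a global IDR of 0.0307, and nduf-5, nuo-4, nuo-5 and nuo-6 had no ranked peak.

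Complex III passes electrons to cytochrome c. Its only bound gene was cyc-1 (WBGene00000869), which encodes cytochrome c1, with a peak at chromosome I, 8024537 to 8024836. The signals were 68.45 in replicate 1, 45.6 in replicate 2 and 106.2 in the pool, so here replicate 1 was the higher. The summit lay at -265 bp, outside annotated genes, and the start of cyc-1 was 457 bp behind the end of C54G4.9 on the same strand. The ucr genes, for the core and small subunits of this complex, had 62.73 at ucr-1 and from 16.26 (ucr-2.3) to 36.81 (ucr-2.2) at the others, ucr-11 having 17.6.

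Complex II, succinate dehydrogenase, had no bound gene among its 4 members. The flavoprotein gene sdha-1 had 40.69, sdhb-1 for the iron-sulfur subunit had 26.68, sdha-2 had 24.97 and sdhd-1, a membrane anchor, had 5.865, the lowest value of any member. Of the cytochrome c genes, cyc-2.1 had 55.65 and cyc-2.2 had 27.68, and neither peak was reproducible.

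**Figure D1:**
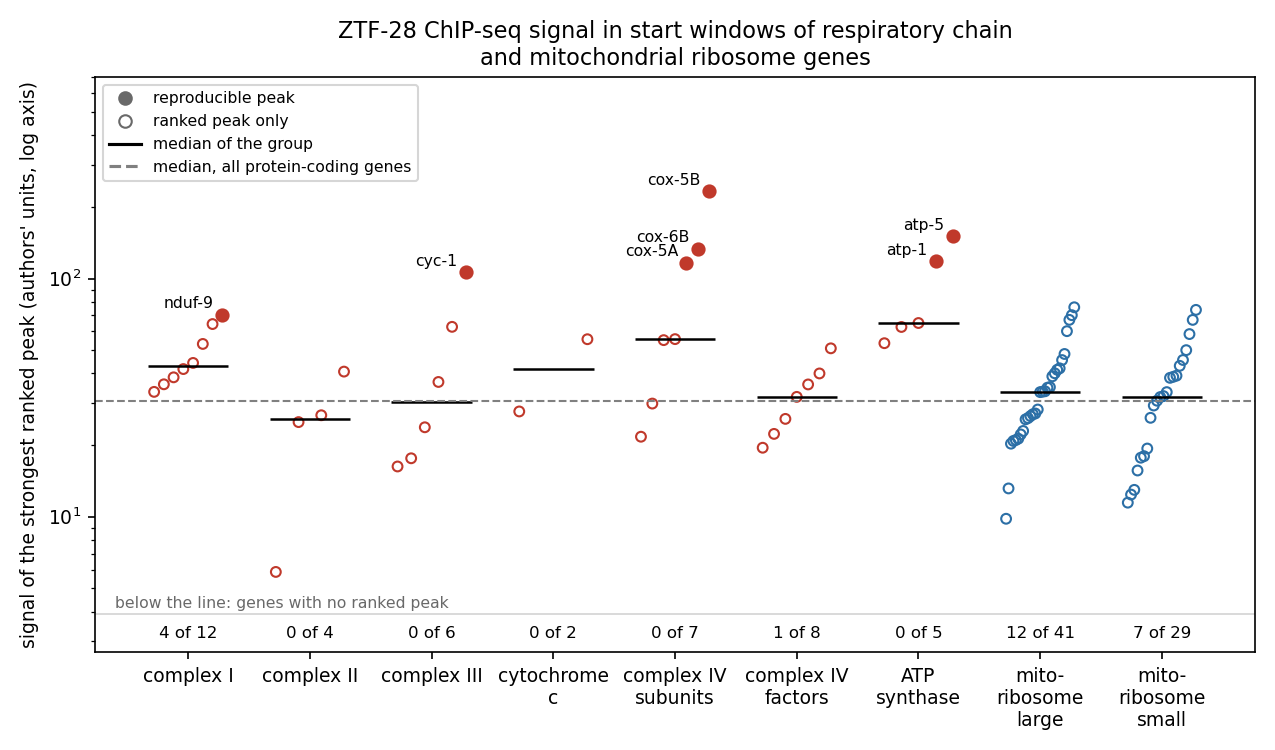
Pooled signal of the strongest ranked peak in the start windows of each gene (vertical axis, authors' units, log scale), by complex (horizontal axis). Filled points are reproducible peaks, open points other ranked peaks, solid bars group medians, the dashed line the median of all protein-coding genes (30.58), and the numbers under the line count genes with no ranked peak. The 7 filled points are all respiratory chain genes, between 70.51 and 233.5. The atp- genes of the ATP synthase and the complex IV subunits have the highest medians.

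At mitochondrial ribosome genes, no peak was reproducible and the ranked signals lay near those of protein-coding genes in general. A ranked peak was present at 39 of 44 respiratory chain genes (88.6%) and at 51 of 70 mitochondrial ribosome genes (72.9%), against 62.7% of all protein-coding genes. Among genes with one, the median signal of the strongest was 40.69 at respiratory chain genes, 32.1 at mitochondrial ribosome genes and 30.58 at all protein-coding genes. The quartiles were 27.18 and 62.69 for the respiratory chain, 21.72 and 41.71 for the mitochondrial ribosome, and 20.26 and 43.28 for all, so the distributions overlapped over most of their range. With genes lacking a ranked peak set to 0, the medians were 37.66, 25.8 and 18.27 in the same order.

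Without the bound members, the respiratory chain still had the higher median, by a smaller margin. Its other 37 genes had a median of 36.4 where a ranked peak was present, against 29.67 for all protein-coding genes that were not bound. Among the 1998 protein-coding genes of highest signal (10.0%) stood 17 of 44 respiratory chain genes (38.6%) and 7 of 70 mitochondrial ribosome genes (10.0%). The mitochondrial ribosome genes were thus found there at the same rate as protein-coding genes in general. Peaks with a global IDR under 0.05 were present at 11 of 44 respiratory chain and 4 of 70 mitochondrial ribosome genes (5.71%), against 5.25% of all genes.

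By complex, the medians of the strongest ranked signal were 42.97 for complex I, 25.82 for complex II, 30.28 for complex III, 41.67 for cytochrome c, 55.7 for complex IV subunits, 31.87 for complex IV factors and 65.09 for the ATP synthase. They were 33.37 for the large and 31.95 for the small subunit of the mitochondrial ribosome. The 2 subunits of the ribosome thus lay near each other and near all protein-coding genes, while the complexes of the chain ranged on both sides of them. These medians cover only members, as set by symbol, with a ranked peak, 2 to 8 in each complex of the chain, and are given without a test. With genes lacking one set to 0, complex I had a median of 37.24, the complex IV factors 28.81, the large ribosomal subunit 25.65 and the small subunit 26.03.

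Of the mitochondrial ribosome genes, mrpl-45 (WBGene00022493), for a protein of the large subunit, had the highest pooled signal, 75.79. Its replicates stood apart, with 58.35 in replicate 1 and 22.31 in replicate 2, and its global IDR was 0.0916. The peak, at chromosome III, 1202080 to 1202379, was in the optimal list and in the list of replicate 1 alone but not in the conservative list (3.00% of all genes were called in the optimal list), and its summit at -222 bp was shared with Y119D3B.12 at -316 bp. Next came mrps-35, with 37.77 in replicate 1, 36.41 in replicate 2 and 73.91 in the pool. Its pooled signal was above that of nduf-9, but its global IDR was 0.0108, the lowest of any member that was not bound. At nduf-9 the global IDR was 0.00511, the highest of any bound member. The count of 0 holds at the authors' threshold, and 4 of 70 mitochondrial ribosome genes had a peak with a global IDR under 0.05. The large subunit genes mrpl-18 and mrpl-17 had 70.22 and 67.11 and the small subunit gene mrps-7 had 67.09, with global IDR values of 0.0241, 0.013 and 0.0289. For mrpl-9, at 60.16, the replicates were 14.65 and 38.07. The lowest ranked signals were at mrpl-19 (9.807), mrps-11 (11.46) and mrps-23 (12.39), and 19 of 70 genes had no ranked peak. The large subunit gene mrpl-1 and the small subunit gene mrps-24 shared 1 peak of 33.37 in their windows, so they are not separate measurements.

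The replicates stayed within 2-fold of each other at every bound member. The IDR threshold picks peaks that rank high in both replicates, so this closeness follows in part from the way bound members were chosen. Away from reproducible peaks the replicate columns are less sure. Over all genes with a ranked peak, both values matched a peak in the replicates' own ranked lists at 21 of 39 respiratory chain genes. The same held at 30 of 51 mitochondrial ribosome genes, against 5469 of 12523 protein-coding genes (43.7%). The respiratory chain count includes the bound members, at all of which both values matched. Replicate values at a gene's strongest ranked peak differed by more than 2-fold at 12 of 39 respiratory chain genes (30.8%) and 21 of 51 mitochondrial ribosome genes (41.2%), against 4115 of 12523 protein-coding genes (32.9%). Over the genes with both values in the own lists, the counts were 3 of 21 and 9 of 30, against 20.8% of all. Across genes, Spearman's rho between the replicates was 0.533 over the 39 respiratory chain genes, 0.152 over the 51 mitochondrial ribosome genes and 0.377 over all 12523, as a description only, since all points come from the same pair of libraries. The rho and 2-fold values of the respiratory chain include the bound members, picked for high ranks in both replicates. Those of the mitochondrial ribosome include none. In the authors' list of replicate 1 alone, cox-5B, cox-5A, atp-5 and cyc-1 were bound along with mrpl-45 (1.17% of all genes), and in that of replicate 2, cox-5B, cox-5A, atp-5 and cox-6B (1.36%). Thus cox-5B, cox-5A and atp-5 were present in both, while atp-1 and nduf-9 were in neither and rest on the comparison of the replicates.

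**Figure D2:**
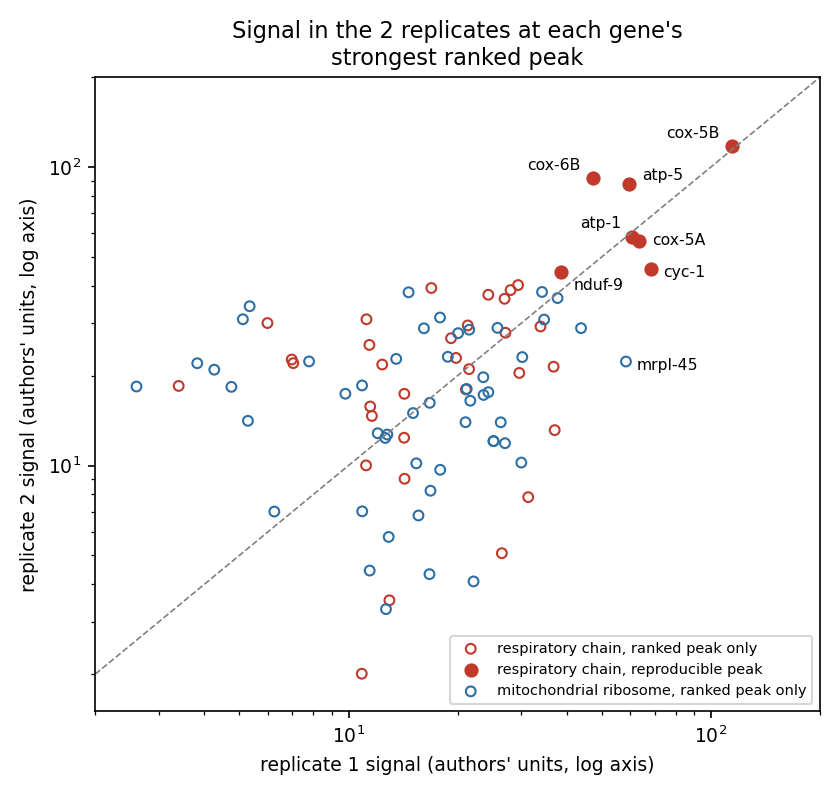
Signal in replicate 1 (horizontal axis) and replicate 2 (vertical axis) at each gene's strongest ranked peak, authors' units on log axes, with a dashed line of equal values. Filled points are reproducible peaks. The bound members were picked by an IDR threshold for high ranks in both replicates. They lie near the line, from 38.56 to 114.5 in replicate 1 and from 44.63 to 117.7 in replicate 2. The gene mrpl-45 lies off it at 58.35 and 22.31.

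Bound summits lay mostly upstream of the annotated start. Of the 7, 6 were upstream, with a median of -217 bp and a range of -301 to 14 bp. Over all reproducible summits at protein-coding starts, 558 of 620 pairs of gene and summit were upstream, with a median of -198 bp. The strongest ranked peaks were upstream at 28 of 39 respiratory chain genes (71.8%), with a median of -133 bp, and at 30 of 51 mitochondrial ribosome genes (58.8%), with a median of -17 bp. Over all protein-coding genes they were upstream at 68.3%, with a median of -122 bp, and no test of these shares was made.

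**Figure D3:**
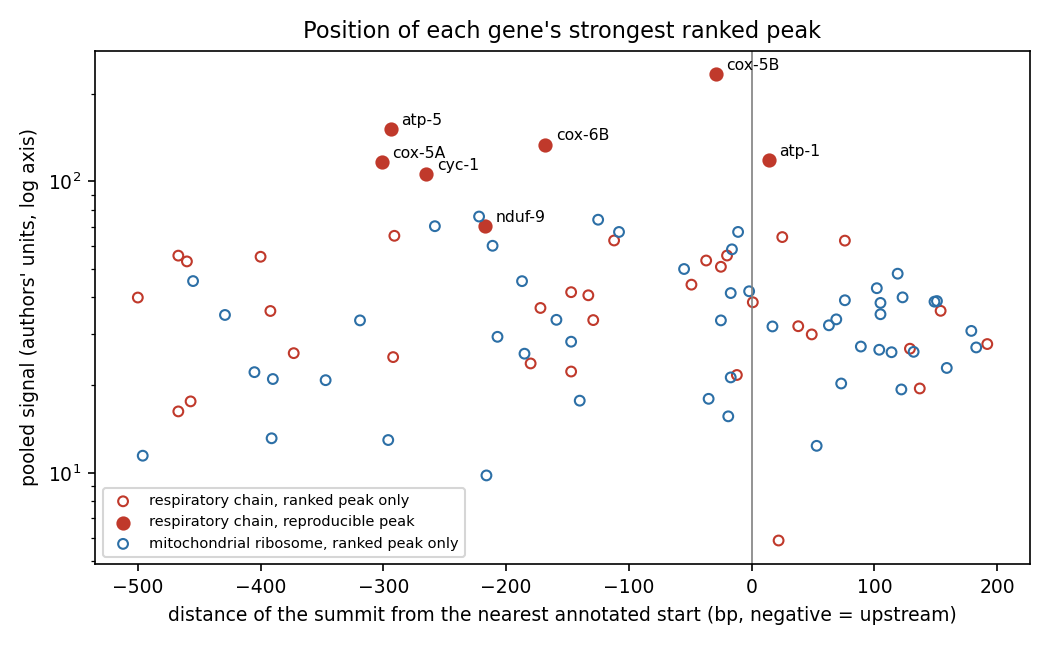
Distance of the summit of each gene's strongest ranked peak from the nearest annotated start (horizontal axis, bp, negative upstream) and its pooled signal (vertical axis, authors' units, log scale). Filled points are reproducible peaks, which lie from -301 to 14 bp, and open points run through the whole window.

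Some bound summits lay in the start windows of more than 1 protein-coding gene and cannot be given to either. These were the summits of atp-1, also in a window of mcrs-1, of atp-5, also in one of lmtr-3, and of cox-6B, also in one of Y71H2AM.20. A divergent protein-coding start lay within 1000 bp at 19 of 44 respiratory chain genes (43.2%) and 26 of 70 mitochondrial ribosome genes (37.1%), against 17.7% of all protein-coding genes. Among the bound members such a start was that of mcrs-1 for atp-1, of lmtr-3 for atp-5, and of slc-30A9 for cox-6B, whose summit lay in no window of slc-30A9. With summits in windows of other protein-coding genes left out, 4 respiratory chain genes were still bound, namely cox-5A, cox-5B, cyc-1 and nduf-9.

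Placement behind another gene was common in both sets. A gene on the same strand ended within 500 bp of the start at 16 of 44 respiratory chain genes (36.4%) and 28 of 70 mitochondrial ribosome genes (40.0%), against 3954 of 19973 protein-coding genes (19.8%). This distance stands in for operons, of which no list was used. Among genes not so placed, 6 of 28 respiratory chain genes were bound (21.4%, interval 10.2 to 39.5) and 0 of 42 mitochondrial ribosome genes, which allows up to 7.14% by 3 counts (Wilson upper bound 8.38%), against 503 of 16019 protein-coding genes (3.14%). Among those so placed, 1 of 16 (cyc-1) was bound in the respiratory chain and 0 of 28 in the mitochondrial ribosome, against 2.4% of all. The counts of the sets also differed where no gene lay close upstream, and this difference was not tested. The median signals there were 53.17 for the respiratory chain, 34.93 for the mitochondrial ribosome and 30.71 for all.

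**Figure D4:**
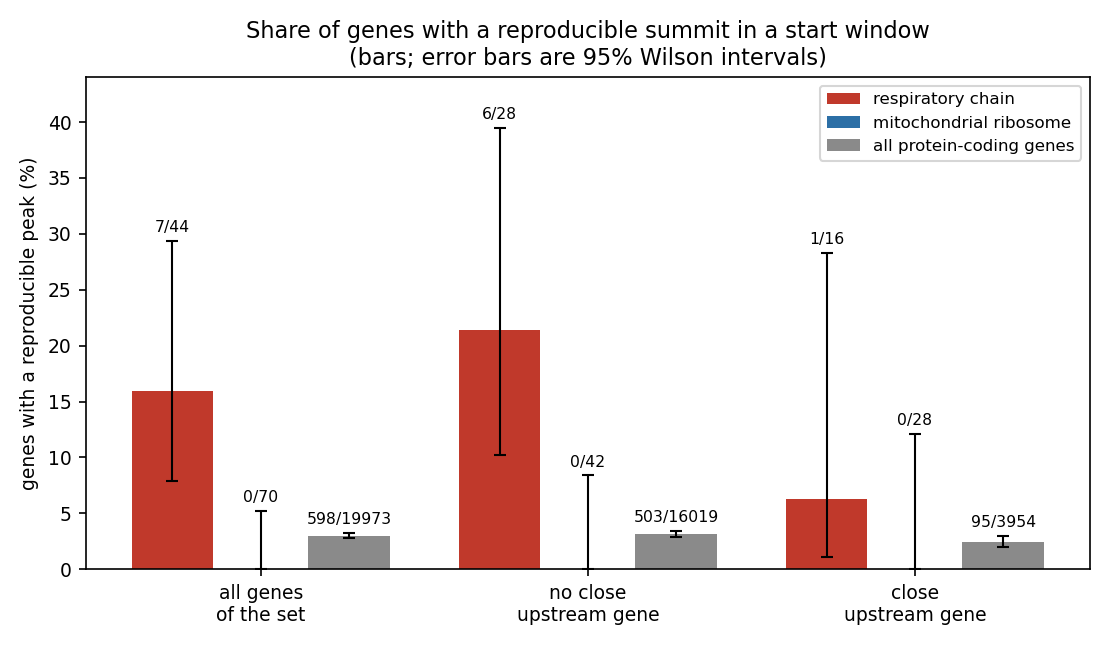
Share of genes with a reproducible summit in a start window (vertical axis, percent) for respiratory chain, mitochondrial ribosome and all protein-coding genes, over all genes of each set and split by a same-strand gene ending within 500 bp upstream. Bars are shares with 95% Wilson intervals, and the counts stand above them. No mitochondrial ribosome gene is bound in either split.

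Some members that were not bound themselves lay in a same-strand run whose first gene was bound. This held for 6 of 16 respiratory chain genes with a close upstream gene (37.5%, interval 18.5 to 61.4) and for 5 of 28 mitochondrial ribosome genes (17.9%, interval 7.88 to 35.6), against 256 of 3954 protein-coding genes (6.47%). In the respiratory chain, cyc-2.1 followed rpl-20, a cytosolic ribosomal protein gene whose peak had a pooled signal of 196.3. The assembly genes cox-18 and cox-11 followed Y55F3AR.2 (176.2) and lin-54 (127.6), a gene of the DREAM repressor complex. The small subunit gene ucr-11 followed dad-1 (132.7), of the oligosaccharyltransferase, and the complex I genes nuo-4 and nuo-5 followed syf-2 (81.74) and Y45G12B.2 (67.58). In the mitochondrial ribosome, mrps-21 followed F29B9.11 (152.7), mrps-30 followed eif-3.E (150.9), a subunit of a translation initiation factor, mrpl-32 followed the proteasome gene rpn-3 (109.1), mrpl-54 followed clsp-1 (107.0), and mrpl-53 followed tag-124 (105.5). All but 1 of these 11 summits, that at eif-3.E, also lay in the window of a further gene, among them rpl-12 beside lin-54, cct-8 beside Y55F3AR.2 and eef-2 beside clsp-1. Other genes lay between the first gene and the member at cox-11, nuo-4 and mrps-30 (1 gene each) and at mrpl-53 (3 genes). The summits lay between -6356 and -1004 bp from the start of the member itself, and the data do not show which transcript is concerned. With the peak of the first gene of a run counted, 13 of 44 respiratory chain genes (29.5%) and 5 of 70 mitochondrial ribosome genes (7.14%) had a reproducible peak, against 4.23% of all.

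Words in the bound summits were counted on both strands in windows of 301 bp. TTTCAG, the common 3′ splice site sequence of worm introns, was in 5 of 7 bound windows (71.4%; atp-5, cox-5A, cox-6B, cyc-1 and nduf-9) and in 68.6% of the strongest ranked peaks of mitochondrial ribosome genes, against 35.1% of all reproducible peaks and 51.7% of windows around all protein-coding starts. GCGCGC was in 2 of 7 (atp-1 and cox-5B), against 16.0% of reproducible peaks and 3.58% of start windows. TGCGCA was in nduf-9 alone (7.27% of reproducible peaks, 3.18% of start windows), TATAAA in cox-6B and cyc-1 (20.7% and 38.0%) and ACTACAA in none (2.58% and 5.28%). In the 415 reproducible peaks at other protein-coding starts and no small RNA gene, TTTCAG was in 44.1%, TATAAA in 23.4%, GCGCGC in 20.7%, TGCGCA in 9.16% and ACTACAA in 2.41%. TTTCAG was also in 62.5% of the strongest ranked peaks of the 32 respiratory chain genes with a ranked peak that was not reproducible. The word of 8 bases most concentrated at summits of reproducible peaks outside the members was CTGAGCTA, which matches the A box of tRNA genes and was in 5.06% of all reproducible peaks and in none of the 7. Among the 5 words of 6 or 7 bases, matches to different words can overlap by at most 1 base. The words TGCGCA and GCGCGC nevertheless both hold the bases GCGC.

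Because so many reproducible peaks lie at small RNA genes, words were also taken from the 415 reproducible peaks at other protein-coding starts, a choice made after the values were seen. Any of the 8 leading words there was present in 1 of 7 bound members (cox-5B, with GCGCGAAA), against 47.2% of those 415 peaks, in which the words had been found, and 9.98% of start windows. The median GC content was 36.5% in the 7 bound windows, 42.9% in all reproducible peaks, 39.5% in the 415 and 34.2% in windows of all starts. These counts describe letters in the windows and name no binding site.

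Mitochondrial genes outside the naming rule gave the setting for these values. Of 27 other genes of the chain and its partners, 1 was bound (3.7%), close to the 2.99% of all protein-coding genes, namely ant-1.1 for an ADP/ATP carrier, with 48.78 in replicate 1, 73.56 in replicate 2 and 114.8 in the pool. Subunits that the rule left out included mev-1 of complex II (68.4), isp-1 of complex III (33.99) and gas-1 of complex I (29.82), and asb-1, of the ATP synthase, was bound in the optimal list alone (77.08). Of other ATP synthase genes outside the rule, asg-1 had 58.49, asb-2 had 30.34 and asg-2 had no ranked peak. Of 11 genes for mitochondrial DNA, RNA and translation factors, 3 were bound (27.3%, interval 9.75 to 56.6). These were mtcu-2, for an enzyme that modifies mitochondrial tRNA, and the elongation factor genes tufm-2 (91.81, shared with exoc-7) and tufm-1 (77.47). At mtcu-2 the signals were 189.6, 216.6 and 406.1 in replicate 1, replicate 2 and the pool. The mtcu-2 summit lay at -466 bp, and the gene begins close behind let-268 on the same strand. The tufm-1 summit lay at -429 bp. The tufm-2 peak was absent from the optimal list, and the factor genes gfm-1 (77.75) and tsfm-1 (19.48) were not bound. Among the mrpl- and mrps- genes, for structural proteins of the mitochondrial ribosome, 0 of 70 were bound. The upper bound of 5.2% includes the 2.99% of all genes. A difference between these factors and the structural proteins was not tested. Of 14 citric acid cycle genes, 1 was bound, dld-1 (91.89), and of 13 import genes none was, which allows up to 23.1% by 3 counts. The dld-1 summit, at -266 bp, also lay in a window of the ncRNA gene LLC1.120 (69 bp), and dld-1 begins close behind nspg-9.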

How the data were processed

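The authors deposited peak lists in 2 forms, ranked and cut at an irreproducible discovery rate (IDR), for each replicate alone, for the comparison of the replicates (the conservative list) and for pooled libraries (the optimal list), in assembly ce11, per the labels. Aligner and peak caller: not given in the sources used here. Read depth is unknown, so precision is stated only for the counting of genes. The deposited signal of each peak, in pooled and replicate columns, has no stated scale and was used only to rank and describe peaks. The deposited score is a scaled IDR, and the −log10 of the global IDR, as the authors wrote it, was converted to IDR. The replicate columns equalled a peak of the lists of replicate 1 at 1077 and of replicate 2 at 1082 of the 1086 reproducible peaks, but at 58.7% and 57.2% of all ranked peaks, so the replicate values of peaks that are not reproducible are less certain. Of 1131 ranked peaks with at least the conservative list's lowest score, 830, 45 are absent from that list and were left uncalled.

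Starts and genes came from Ensembl release 115 (WBcel235, the ce11 sequence), and RefSeq gave symbols to 2773 genes that had none. Each gene was given its ranked peak of highest pooled signal whose summit lay within 500 bp before or 200 bp after any start, and was called bound from the conservative list. Sequences were read from the genome supplied. All comparisons are descriptions. The labels call the libraries biological replicates, which form 1 group, and no p-value was computed. The assignment was tested on simulated data, where 200 of 200 planted genes among 19973 were recovered. Named genes were all members called in any thresholded list, the 5 others of highest and the 3 of lowest signal in each set, and genes that share a bound summit. Values of further members stand in the account of each complex. The members and lists were chosen with earlier results of these data known. Alternatives were the optimal list, an IDR of 0.001, each replicate's list, other windows and starts, any overlap, and the removal of shared summits or of genes close behind another. Software was pandas 2.3.3, NumPy 2.4.6, SciPy 1.17.1 and matplotlib 3.10.9 under Python 3.11.15.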

Additional observations from a re-analysis of the deposited data

How the results depend on the processing

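Of 44 respiratory chain genes, 7 were bound, and this count stayed between 5 and 9 with the optimal list, an IDR of 0.001, a window of 1000 and 200 bp, the outermost start, any overlap, and without small RNA summits or genes close behind another. It was 4 with the window of 250 and 100 bp, 4 without summits in windows of other protein-coding genes, and 4 in each replicate's own list. With the first gene of a run counted, an alternative chosen after seeing the data, it was 13, against 5 for the mitochondrial ribosome. The count of mitochondrial ribosome genes, 0 of 70 in the main list, was 1 with the optimal list, 1 with any overlap, 2 with 1000 and 200 bp, and 0 to 1 in a single replicate's list, where mrpl-45 was called in replicate 1. The share of respiratory chain genes was above that of all protein-coding genes in each alternative with a background count.

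The median signal of respiratory chain genes was 42.97 with 1000 and 200 bp, 37.66 with 250 and 100 bp, 39.24 without small RNA summits, 38.55 without summits of other protein-coding genes and 53.17 without genes close behind another. That of mitochondrial ribosome genes was 35.18 with 1000 and 200 bp, 29.31 with 250 and 100 bp, 38.31 with any overlap, 26.71 without summits of other protein-coding genes and 34.93 without genes close behind another. With the ranked list of a single replicate, which holds peaks at fewer respiratory chain genes (28 in replicate 1 and 30 in replicate 2) and mitochondrial ribosome genes (37 and 46), the medians were 28.29 to 28.67 for the respiratory chain and 19.4 to 21.2 for the mitochondrial ribosome, against 19.82 to 20.72 for all protein-coding genes. In those lists the mitochondrial ribosome was above all genes in replicate 1 (21.2 against 19.82) and below them in replicate 2 (19.4 against 20.72), while in the replicate columns of the comparison it was above them in both (16.76 against 15.86, and 17.4 against 16.51). The cause of these shifts was not tested.

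No paired analysis was possible because the 2 libraries form 1 group. With a single group, unknown depth and no control library analysed here, a gene without a peak is not shown to be unbound.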

Other observations

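Within 1000 bp of a start on either side, reproducible summits were found at 10 of 44 respiratory chain genes and 2 of 70 mitochondrial ribosome genes, against 884 of 19973 protein-coding genes (4.43%). Those outside the start window lay at -844 bp from cox-6A, which encodes an oxidase subunit, at -801 bp from nduf-2.2 and at 510 bp from nuo-3, both of complex I, against -620 bp from mrpl-15 and -980 bp from mrpl-23 of the large ribosomal subunit. Just past that distance, summits lay at -1004 bp from mrps-21 and -1010 bp from mrps-28 of the small subunit. By chromosome, the bound members were 3 of 14 respiratory chain genes on chromosome I, against 4.59% of its protein-coding genes, 3 of 11 on chromosome III, against 4.81%, and 1 of 5 on chromosome V, against 1.98%. Chromosome III also held 22 mitochondrial ribosome genes, of which 0 were bound. The mitochondrial ribosome gene mrps-15 and the ATP synthase gene asg-1, its divergent neighbour, shared 1 ranked peak of pooled signal 58.49 at -16 and -433 bp from their starts, with a global IDR of 0.0908.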
